A study of Sus scrofa with 20 samples.

Results

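CCN1 and the YAP-TEAD pathway are described here through 6 genes in the hypothalamus of young pigs: the secreted matrix proteins CCN1, CCN2 and CCN3, the co-activators YAP1 and WWTR1 (the gene of TAZ), and their DNA-binding partner TEAD1. Each gene symbol matched 1 Ensembl identifier, so that 6 of the 25880 identifiers in the count table were members. CCN1 (ENSSSCG00000006940) was chosen by its counts, which were higher in crossbred animals, and the other 5 were added as its family and pathway. The breed difference therefore chose the set, and it is given below as a description with no test.

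The series sequenced messenger RNA of the hypothalamus in 20 libraries from pigs aged 2 months. Pure Iberian pigs were compared with crossbred pigs of Iberian and Large White, which the labels write as Iberian x Large White. Each breed had 5 females and 5 males, which gave 4 groups of 5 libraries. All were intact tissue of pigs with no treatment or engineered allele in the labels, which do not state litters, farms or processing days, so p-values measure the spread between these libraries.

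The Hippo pathway is a chain of kinases that keeps YAP1 and TAZ in the cytoplasm. When the kinases are inactive, YAP1 and TAZ enter the nucleus, bind TEAD factors and switch on target genes, among which CCN1 and CCN2 are the classical readouts in human and mouse cells. CCN proteins are secreted into the matrix, where they bind integrins and change adhesion, vessel growth and scarring. CCN1 is also an immediate early gene that serum and actin signals induce through SRF. In the brain, YAP1 and TAZ are known mainly from astrocytes, ependymal cells and vessel cells.

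Libraries held 1430138 to 2384615 counts assigned to genes, which was 4.04 to 4.62% of all entries counted. Another 80.2 to 88.1% of entries fell on no feature. In all 20 libraries ND6, the only mitochondrial messenger encoded on the other strand, had 19.8 to 141 times the counts of COX1. How strand was handled when reads were assigned to genes is not stated in the labels or the file. Whether counts under a gene name came from its messenger or from the opposite strand is thus uncertain for every gene below. The level of a gene below means the counts under its name, from whichever strand they came. Of 16 hypothalamus markers, 14 had an identifier, and vasopressin (AVP), galanin (GAL), orexin (HCRT), NPY and OTP had counts in 20 of 20 libraries. Oxytocin (OXT) had counts in 13 libraries, AGRP in 11 and LHX6 in 8, and SIM1 and CRH had 7 counts each over all libraries. Levels were low even for those found in all libraries, with 5 to 55 counts of AVP and 1 to 15 of NPY per library. Only 3 of these markers had enough counts to be tested. Iberian male replicate 5 held 157 counts of prolactin (PRL), against at most 4 elsewhere. The share of alignments discarded for low quality was 5.33 to 5.92% in 7 libraries (all Iberian females and Iberian males 2 and 3) and 2.73 to 3.88% in the other 13, so it partly followed breed.

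Depth decided which members could be tested. A gene entered the test when enough libraries held about 10 counts, which 7090 genes did. CCN1 passed with 71 to 241 counts per library (2572 in all), CCN2 with 8 to 33 (383 in all) and YAP1 with 3 to 17 (197 in all). CCN3 had 0 to 10 counts per library (90 in all), TEAD1 1 to 7 (73 in all) and WWTR1 0 to 4 (19 in all), and these 3 were too low to test. WWTR1 was at 0 in 6 libraries and CCN3 in 1. A count of 0 allows up to 3 counts, which was 1.22 to 2.13 CPM (counts scaled to a common library size, by the TMM method) for WWTR1 and 2.17 CPM for CCN3, from counting error only.

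CCN1 was the member chosen for its breed difference. In Iberian females it measured 61.8, 58.6, 46.7, 52.7 and 50.3 CPM for replicates 1 to 5, and in Iberian males 57.2, 57.4, 44.3, 52.7 and 55.0 CPM. In crossbred females it measured 81.4, 82.4, 93.4, 97.9 and 52.7 CPM, and in crossbred males 75.7, 83.9, 88.2, 84.5 and 58.7 CPM. The Iberian values thus lay close together, and 8 of 10 crossbred libraries lay above the highest Iberian one. The exceptions were crossbred female 5 and crossbred male 5, which lay among the Iberian values, and no library fell between 61.8 and 75.7 CPM.

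**Figure D1:**
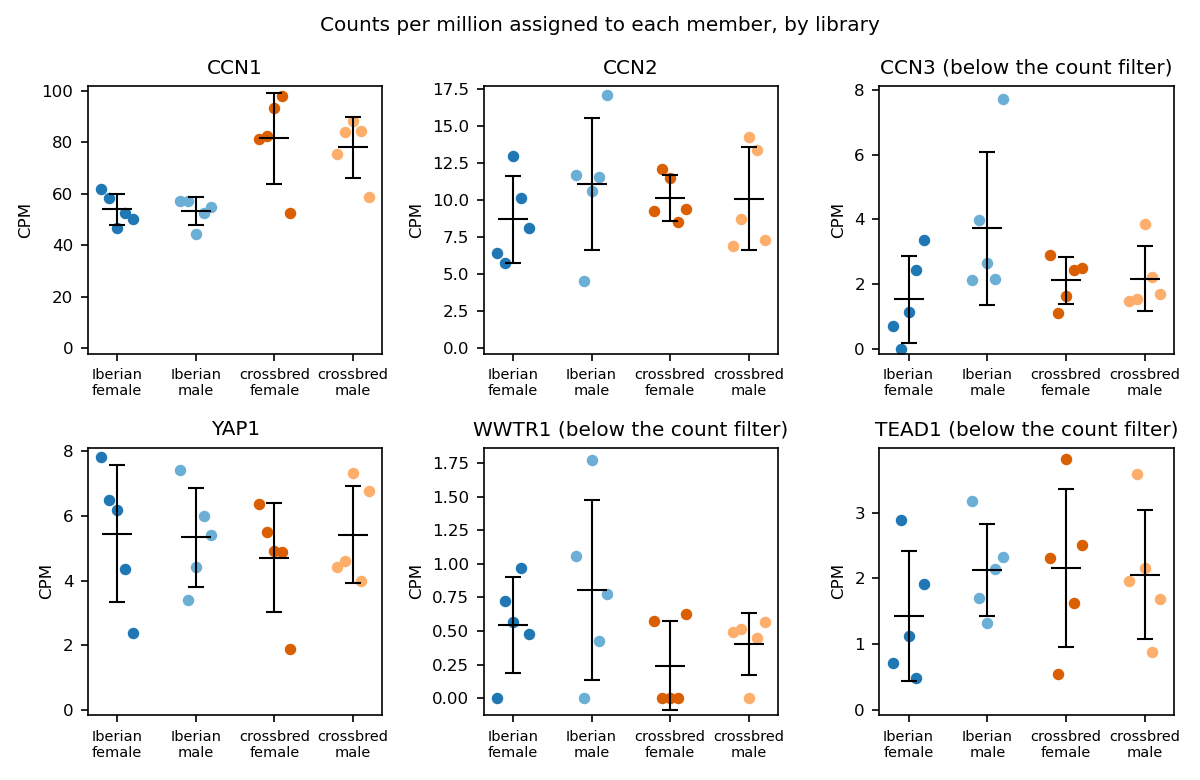
CPM of the 6 members in each library (dots), with the mean and SD of each group of 5 (bar and whiskers); each panel has its own CPM axis. CCN1, which was chosen for its breed difference, sat at 44.3 to 61.8 CPM in all 10 Iberian libraries. It sat at 75.7 to 97.9 CPM in 8 of 10 crossbred libraries. The groups overlapped for the other members, which had at most 33 counts per library. Overlap was not counted over all genes.

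By group, the CCN1 level was highest in crossbred females at 81.6 ± 17.6 CPM, followed by crossbred males at 78.2 ± 11.8, Iberian females at 54.0 ± 6.13 and Iberian males at 53.3 ± 5.40 (SD, n = 5 each). Neighbours within a breed differed by less than their spread. Between Iberian females and crossbred males the means were farther apart than either SD. Over both sexes the level was 79.9 ± 14.3 CPM in crossbred and 53.7 ± 5.46 CPM in Iberian libraries (SD, n = 10 each), a fitted log2 difference of 0.58 (SE 0.11). The fitted log2 difference was 0.60 (SE 0.15) in females and 0.56 (SE 0.15) in males. Over all genes, 0.226% of those tested passed the threshold between breeds in either direction (edgeR, adjusted p of 0.05) and 0.183% were higher in crossbred animals. CCN1 was among them, which is why it was chosen, and nothing is read from that count. It no longer passed without crossbred female 4 (log2 0.54, SE 0.11) or with the alignment quality set as a term (0.50, SE 0.19), where no gene passed. Fewer cells that express a gene and less of its RNA per cell cannot be told apart in whole tissue.

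The spread of CCN1 differed between breeds as well. In Iberian libraries the coefficient of variation was 10.2%, against 10.4% that Poisson counting alone would give at their mean of 96.8 counts. In crossbred libraries it was 17.9%, against 7.97% from counting at a mean of 160.4 counts. The Iberian spread was thus no wider than counting error, and the crossbred spread was wider, with the low values of crossbred female 5 and crossbred male 5 at its lower end. This difference in spread was noticed in the values and was not tested.

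The low-quality share moved with breed, and CCN1 can be read within its low set in males only. There, Iberian males 1, 4 and 5 measured 57.2, 52.7 and 55.0 CPM, and the 5 crossbred males were those given above. Iberian male 5, with 157 counts of PRL, was thus 1 of these 3 Iberian libraries. The fitted difference among low-share males was 0.52 (SE 0.19) on the log2 scale, against 0.56 in all males. Iberian males of the high set, at 57.4 and 44.3 CPM, lay on both sides of those of the low set. In females the set and the breed cannot be told apart.

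Position adds a limit to the CCN1 counts. RefSeq on Sscrofa11.1 lists the gene under its earlier symbol CYR61 at chr4:130392404-130395179, wholly inside the span of ZNHIT6 (chr4:130298109-130409569), a factor of small nucleolar ribonucleoprotein assembly. That table gives no strand and no exons, so whether exons of the pair overlap was not tested. ZNHIT6 itself had 1 to 18 counts per library, below the filter, at 4.20 ± 2.90 CPM in Iberian and 3.76 ± 1.62 CPM in crossbred libraries (SD, n = 10 each). Its groups overlapped, with 0 of 10 crossbred libraries above the highest Iberian one, which was Iberian male 5, and 1 of 10 without that library. Of 20 other RefSeq genes that lie at least in part within 1000000 bp of CCN1, 4 were tested. The log2 breed difference was 0.04 (SE 0.13) for the collagen gene COL24A1, -0.23 (SE 0.14) for DDAH1, which degrades methylated arginine, -0.04 (SE 0.21) for BCL10, a signalling adaptor of immune cells, and 0.03 (SE 0.20) for CLCA2. None of these 4 passed between breeds with edgeR, and this window was looked at after the CCN1 values were known.

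**Figure D2:**
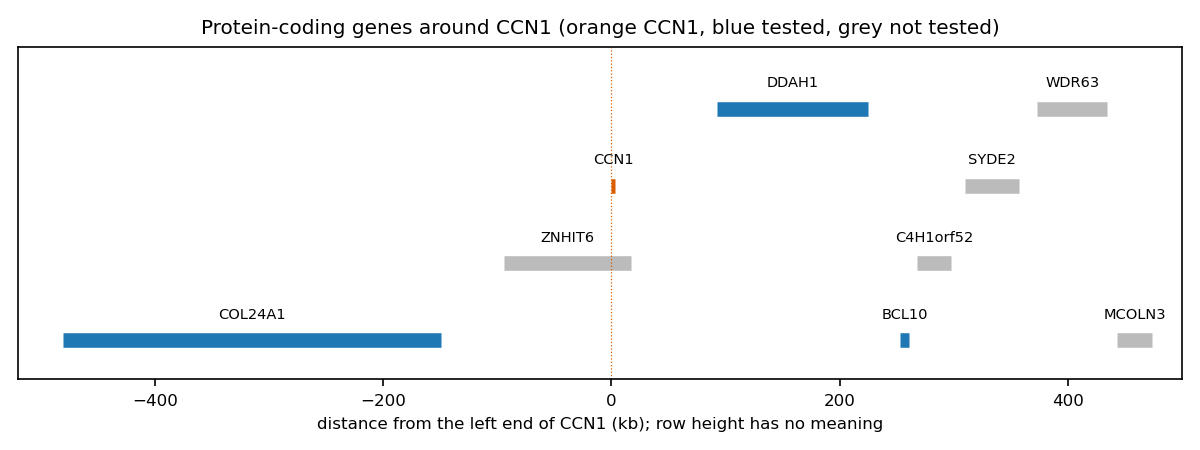
Protein-coding RefSeq genes around CCN1 on chromosome 4, drawn to scale as distance in kb from the left end of CCN1; colours mark CCN1, other tested genes and genes not tested, and row height has no meaning. CCN1 lies inside the span of ZNHIT6, and the tested neighbours COL24A1, DDAH1 and BCL10 had log2 breed differences of 0.04, -0.23 and -0.04.

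CCN2, the connective tissue growth factor and the closest relative of CCN1 as a YAP target, did not show the same split. It measured 6.40, 5.78, 13.0, 10.2 and 8.14 CPM in Iberian females and 11.6, 4.55, 10.6, 11.6 and 17.0 CPM in Iberian males. Crossbred females had 9.24, 12.1, 11.5, 8.53 and 9.41 CPM, and crossbred males 6.88, 8.70, 14.2, 13.3 and 7.33 CPM. The groups overlapped, with 0 of 10 crossbred libraries above the highest Iberian one. That one was Iberian male 5, the library with pituitary transcripts, and without it 2 of 10 crossbred libraries (males 3 and 4) lay above the highest Iberian value of 13.0 CPM. CCN1 was chosen for its split, and how many of all genes overlap as CCN2 does was not counted. The fitted log2 difference of CCN2 between breeds was 0.05 (SE 0.20), with an interval of -0.34 to 0.44 (normal 95% interval). With the alignment quality set as a term its direction turned, to -0.46 (SE 0.33), and it did not pass. CCN2 has the position chr1:31674398-31677697, with no overlapping RefSeq gene.

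YAP1, the co-activator, overlapped between breeds too. Its values were 7.82, 6.51, 6.19, 4.35 and 2.39 CPM in Iberian females and 7.41, 3.41, 4.43, 5.998 and 5.42 CPM in Iberian males. In crossbred females they were 6.35, 5.49, 4.91, 4.88 and 1.88 CPM, and in crossbred males 4.42, 4.61, 7.32, 4.00 and 6.77 CPM. No group stood apart. The log2 breed difference was -0.06 (SE 0.24, interval -0.53 to 0.40), or -0.52 (SE 0.40) with the alignment quality term, and neither passed. Its coefficient of variation was 32.2% in Iberian and 30.7% in crossbred libraries, close to the 33.0 and 31.7% of counting alone. YAP1 spans chr9:32811629-32924926 and overlaps the lncRNA LOC102157672, so its counts are uncertain.

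The members below the filter were low in every group. TAZ, encoded by WWTR1, had 13 counts over all Iberian and 6 over all crossbred libraries, with at most 4 in 1 library. TEAD1, the DNA-binding partner, had 32 and 41 counts, at 1.78 ± 0.89 and 2.11 ± 1.04 CPM. CCN3, a family member that in human cells opposes CCN2, had 47 and 43 counts, at 2.63 ± 2.16 and 2.14 ± 0.83 CPM (SD, n = 10 each). Their ranges overlapped between breeds, and in a fit with no count filter the log2 breed differences had wide errors, at -1.06 (SE 0.72) for WWTR1, 0.30 (SE 0.40) for TEAD1 and -0.13 (SE 0.38) for CCN3. RefSeq places 2 lncRNAs over parts of TEAD1 and a pseudogene over part of WWTR1, while CCN3 has no overlapping gene.

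Sex did not enter the choice of members and was tested. With edgeR's quasi-likelihood test, 0 of the 3 tested members passed between males and females, 0 at an unadjusted p under 0.05, and 0 with DESeq2 or limma voom. Over all genes 0.0705% passed between sexes. CCN1 measured 65.8 ± 15.7 CPM in males and 67.8 ± 19.1 in females (SD, n = 10 each; log2 -0.04, SE 0.11, interval -0.25 to 0.17, edgeR adjusted p = 0.9999). For CCN2 the values were 10.6 ± 3.78 and 9.42 ± 2.34 CPM (log2 0.16, SE 0.20, edgeR adjusted p = 0.9999), with 6 of 10 males above the female median. YAP1 had 5.38 ± 1.43 and 5.08 ± 1.84 CPM (log2 0.11, SE 0.24, edgeR adjusted p = 0.9999), with 5 of 10 males above the female median. With the alignment quality term the direction turned for CCN2 (-0.08, SE 0.23) and YAP1 (-0.11, SE 0.28), and neither passed. Within a breed, 0 of 3 members passed either, against 0.0705% of all genes in each of the Iberian and crossbred contrasts. For CCN1 the log2 sex difference was -0.02 (SE 0.15) in Iberian and -0.06 (SE 0.15) in crossbred libraries, the latter all in the low set of alignment quality.

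Whether the breed difference depended on sex was tested as an interaction, which the choice of CCN1 over both sexes did not use. No member passed with edgeR, DESeq2 or limma voom, 0 were at an unadjusted p under 0.05, and 0.0141% of all genes passed with edgeR. The interaction for CCN1 was -0.05 on the log2 scale (SE 0.21, interval -0.46 to 0.37, edgeR adjusted p = 0.974). For CCN2 it was -0.28 (SE 0.40, edgeR adjusted p = 0.883) and for YAP1 0.16 (SE 0.48, edgeR adjusted p = 0.957). The intervals of CCN2 and YAP1 ran from -1.07 to 0.50 and from -0.77 to 1.097, which leaves large differences in either direction within the error.

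**Figure D3:**
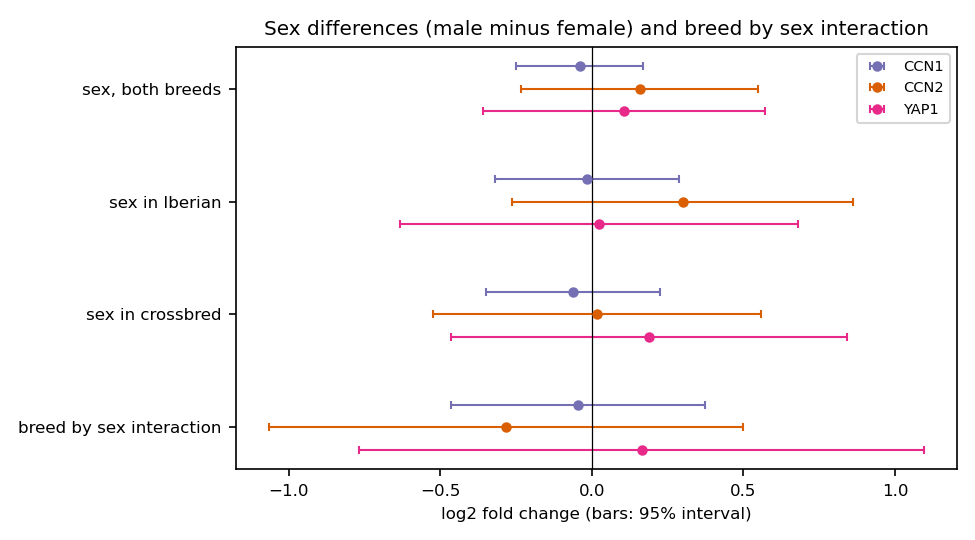
Log2 differences of the 3 tested members between males and females, over both breeds and within each, and the breed by sex interaction; dots are edgeR estimates and whiskers normal 95% intervals. All intervals include 0, and those of CCN1 are the narrowest, from -0.25 to 0.17 for sex.

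CCN1 and the other tested members were compared across libraries after group means had been removed, so that the breed difference played no part in the deviations. Over 20 libraries the deviations of CCN1 and CCN2 had a Pearson r of 0.0037 and a Spearman rho of -0.015 (permutation within groups, p = 0.986 and 0.952, adjusted over 2 relations 0.986 and 0.952). For CCN1 and YAP1 they were 0.44 and 0.31 (permutation p = 0.106 and 0.219, adjusted 0.212 and 0.438). Neither relation passed. Without crossbred females 3 and 4, whose CCN1 level lay farthest from the median of all libraries, r was 0.026 for CCN2 and 0.44 for YAP1. These libraries were picked by level and not by deviation, so the breed difference entered their choice. The largest CCN1 deviations were those of crossbred female 5 (-0.59) and crossbred male 5 (-0.39). The value for YAP1 rested on crossbred female 5, which was low in both genes with 3 counts of YAP1. It was 0.070 without that library and 0.60 without crossbred male 5 (adjusted permutation p = 0.860 and 0.0672).

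**Figure D4:**
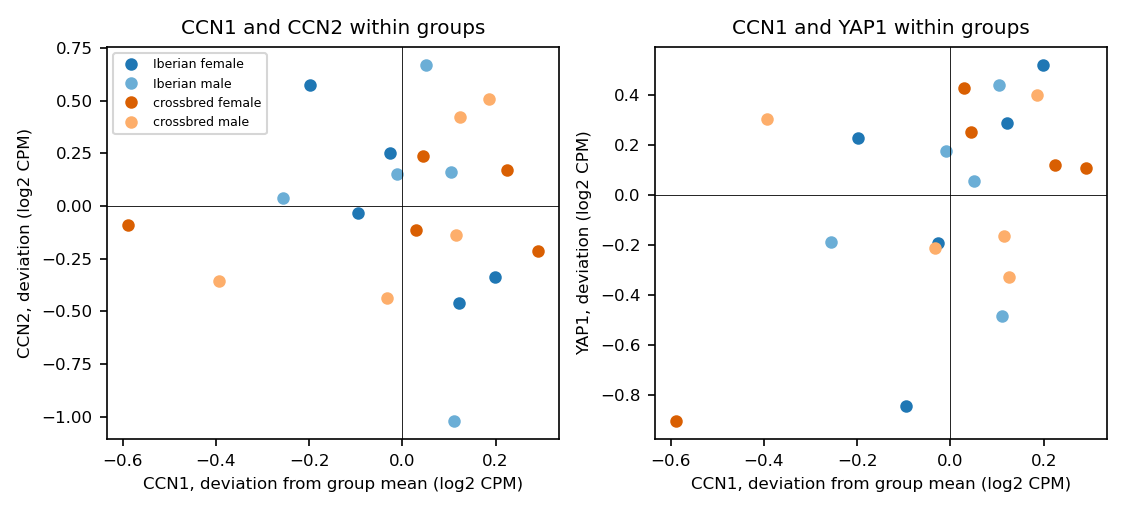
Deviation of CCN1 from its group mean (x axis, log2 CPM) against that of CCN2 (left) and YAP1 (right, both log2 CPM), 1 dot per library and 1 colour per group. The crossbred female at the far left, replicate 5, was low in CCN1 and in YAP1, and r for YAP1 was 0.44 with it and 0.070 without it.

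By the same measure, the named genes most like CCN1 among 5995 others were ZNF672, a zinc finger protein (r = 0.72 over 20 libraries), APTX, a DNA end repair enzyme (0.71), CC2D1B (0.68), the arginine methyltransferase PRMT7 (0.68), BEND7 (0.68) and TAF3, a subunit of the TFIID complex (0.68). These are the highest of many correlations over few libraries, and they are given as a description. Their log2 breed differences ran from -0.12 for PRMT7 to 0.18 for BEND7, against 0.58 for CCN1. In the same ranking YAP1 stood at place 268 and CCN2 at place 2870. PRMT7 and CC2D1B overlap other RefSeq genes and are uncertain. ZNF672, CC2D1B and BEND7 had low mean levels of 6.79, 8.48 and 4.25 CPM, where counting error is large. APTX, PRMT7 and TAF3 had 321, 97.5 and 22.2 CPM.

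The wider pathway was read through 7 lists with 103 genes, of which 95 had an identifier and 37 were tested. Beside CCN1, 0 of 36 tested genes passed between breeds with edgeR, 0 had an unadjusted p under 0.05, and 0 passed with DESeq2 or limma voom, against 0.226% of all genes that passed with edgeR and 7.48% that had an unadjusted p under 0.05. The median log2 difference of all 7090 genes was -0.004.

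Among YAP-TEAD targets known from human cells, 9 of 22 were tested. Beside CCN1, 3 of 8 fitted breed differences were above 0 and 5 below, with a median of -0.16. CRIM1, a membrane protein that binds bone morphogenetic proteins, had 0.12 (SE 0.15), and F3, the tissue factor that starts clotting, had -0.20 (SE 0.24). CRIM1 overlaps FEZ2 and is uncertain. The CCN family had 3 of 6 members tested, and CCN6, which overlaps TUBE1 and is uncertain, had -0.03 (SE 0.19). Of the effectors 2 of 7 were tested, YAP1 and VGLL4, a repressor that competes for TEAD factors, which had -0.003 (SE 0.083). VGLL4 overlaps ATG7.

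Upstream, 6 of 20 Hippo kinases and adaptors were tested, 2 above 0 and 4 below, with a median of -0.08. The kinases TAOK2 and MAP4K4, which activate the chain, had log2 breed differences of -0.10 (SE 0.07) and 0.06 (SE 0.11), and the scaffold SAV1 had -0.18 (SE 0.18). MAP4K4 and SAV1 overlap other genes. On the receiving side, 5 of 12 CCN receptors were tested, with a median of 0.03. The integrin chains ITGAM and ITGB2, which leukocytes and microglia carry, had 0.05 (SE 0.10) and 0.20 (SE 0.17), and NOTCH1, a receptor that CCN3 binds in human cells, had 0.03 (SE 0.15). ITGAM and ITGB2 overlap unnamed loci, and overlap was not checked for NOTCH1.

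Other routes to CCN1 were covered by 2 lists. Of 26 immediate early genes 4 were tested, 2 above 0 and 2 below. JUN, a subunit of AP-1, had 0.20 (SE 0.13), ZFP36, which destabilises messengers, -0.17 (SE 0.14) and KLF2, a factor of vessel walls, -0.13 (SE 0.25). FOS and EGR1 were below the filter. Of 15 genes of SRF, its MRTF partners and their actin targets 10 were tested, 8 above 0 and 2 below, with a median of 0.06. The cytoplasmic actin ACTB had -0.12 (SE 0.12), the myosin heavy chain MYH9 0.09 (SE 0.16) and the actin crosslinker FLNA 0.04 (SE 0.15).

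**Figure D5:**
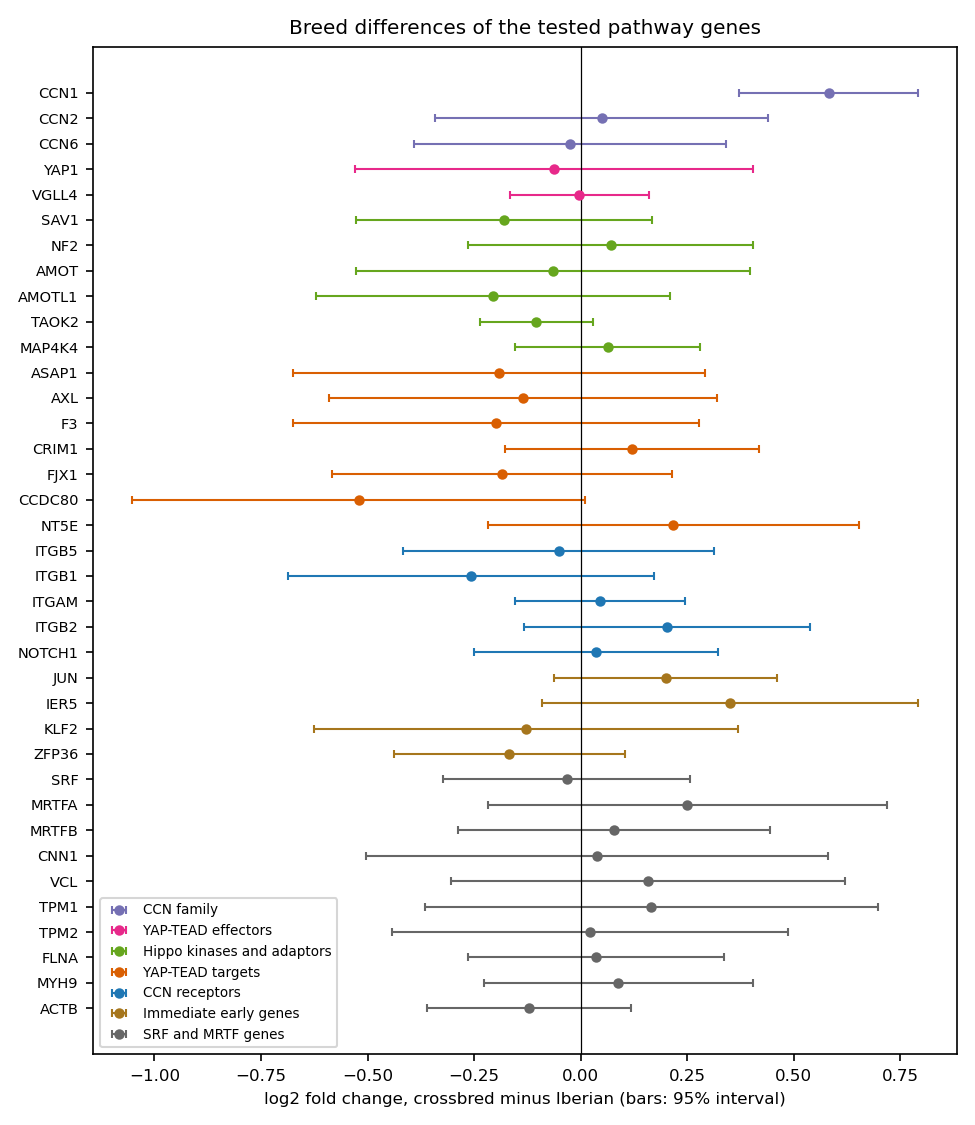
Log2 difference between crossbred and Iberian libraries for the 37 tested genes of the 7 lists, coloured by list; dots are edgeR estimates and whiskers normal 95% intervals. CCN1, which was chosen for this contrast, lies at 0.58, and the other 36 genes have whiskers that include 0.

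Between sexes, 0 of the 37 genes passed with edgeR, DESeq2 or limma voom, with 4, 4 and 3 at an unadjusted p under 0.05. Over all genes 0.0705% passed with edgeR and 3.6% had an unadjusted p under 0.05. Median log2 differences, male minus female, were -0.04 for the CCN family, 0.03 for effectors, 0.07 for the 9 targets and 0.08 for Hippo kinases and adaptors. They were 0.06 for receptors, 0.13 for immediate early genes and 0.19 for SRF and MRTF genes, against 0.009 over all genes. For the interaction 0 of 37 passed with each tool, with 3, 3 and 4 at an unadjusted p under 0.05, against 0.0141% and 8.36% of all genes with edgeR, so the unadjusted count was near the background. CCN6 had an interaction of -1.27 (SE 0.38, edgeR adjusted p = 0.423). The median interaction of the 9 targets was -0.38, against -0.04 over all genes. It was -0.28 for the CCN family, 0.09 for effectors and -0.01 for Hippo kinases and adaptors. For receptors it was -0.17, for immediate early genes -0.21 and for SRF and MRTF genes -0.14.

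Summed markers of the cell types known for YAP1, TAZ and CCN1 overlapped between the breeds. Summed levels of the 8 endothelial markers found ran from 167 to 218 CPM in Iberian and from 169 to 224 in crossbred libraries. For the 10 mural cell markers the ranges were 220 to 283 and 216 to 258 CPM, and for the 9 astrocyte markers 670 to 939 and 628 to 893 CPM. Those of the 9 fibroblast and meningeal markers were 11.4 to 111 and 14.3 to 28.9 CPM, and of the 9 tanycyte and ependymal markers 28.4 to 164 and 33.5 to 49.6 CPM. Both latter upper limits were those of Iberian male 5, where CCN1 was 55.0 CPM. Only 4 endothelial, 2 mural, 8 astrocyte, 3 fibroblast and meningeal and 3 tanycyte and ependymal markers passed the count filter. A sum can thus rest mostly on the few well counted genes of its list. Crossbred female 5 and crossbred male 5, with low CCN1, had 196 and 195 CPM of endothelial, 251 and 216 of mural and 845 and 867 of astrocyte markers. Microglia and oligodendrocyte sums were higher in crossbred libraries at the median. So were those of endothelial (194 against 191 CPM), astrocyte (780 against 771 CPM), fibroblast and meningeal, choroid plexus and hypothalamus markers. Mural, tanycyte and ependymal, neuron (488 against 502 CPM), anterior pituitary and blood sums were lower in crossbred libraries at the median. Microglia markers had a median of 409 CPM in Iberian (393 to 433) and 431 in crossbred libraries (393 to 463), and oligodendrocyte markers 1577 (1433 to 1784) and 1711 (1498 to 2177), with overlapping ranges. The mural sum of crossbred male 5 was the lowest of all 20 libraries, and crossbred female 5 had the highest oligodendrocyte sum, 2177 CPM against 1433 to 1895 elsewhere. Of all markers sought with an identifier in the table, MS4A1 of B cells was at 0 in every library. The part of these cell types in the CCN1 difference was not tested.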

How the data were processed

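The deposited values are raw counts per Ensembl gene, 1 column per library, with 5 summary lines kept apart from library sizes and from testing. Per the labels' protocols, reads were paired with a length of 76 bases. FastQC, Trim Galore, HISAT2, HTSeq and DESeq2 are named by the submitters' processing notes, which also name Sscrofa11.1. Their versions, roles, annotation release and strand setting are not given in the sources used here. Entries with no feature took 80.2 to 88.1%. Symbols came from a reference table that named 14857 identifiers (57.4%), and positions from RefSeq by symbol, using earlier symbols for the CCN and MRTF genes.

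The main test was edgeR's (4.0.16, under R 4.3.3) on TMM-scaled counts of genes that passed filterByExpr by group (minimum count 10, minimum total 15), with 1 mean for each of the 4 groups, robust quasi-likelihood dispersions and Benjamini-Hochberg adjustment over 7090 genes at 0.05. CPM uses the TMM-scaled library size. Deviations used log2 CPM with a prior count of 2 and 100000 permutations within groups. The fit was tried on simulated counts. No 2 libraries of a group were repeats (chi-square per degree of freedom 2.45 to 73.8 over 40 pairs). Alternatives were RLE factors, DESeq2 1.42.0, limma 3.58.1 voom, filters, a replicate block, an alignment quality term, low-share libraries only and each library left out. The members and lists were chosen with earlier results of these data known. Named genes were the members, the 3 tested genes per list with the highest mean CPM, any called list member and the 6 most like CCN1; neighbours of CCN1 and marker sums were added.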

Additional observations from a re-analysis of the deposited data

Results flagged for a closer look

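Of 24 combinations of member and group, each with 5 libraries, 1 had a library far from the others. Crossbred male 3 had 0.0 CPM of WWTR1, where the other crossbred males had 0.44 to 0.56 CPM, each from 1 count. The difference is that between 0 counts and 1 count. Chance alone flags about 1 in 20 groups. The low CCN1 values of crossbred female 5 and crossbred male 5 did not reach the limit for their groups.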

How the results depend on the processing

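CCN1 was chosen by its breed difference in these same libraries, so refits of them are no check on its direction. The fitted CCN1 breed difference kept its direction in every fit run. It was 0.58 with RLE factors, 0.59 with DESeq2, 0.60 with limma voom, 0.60 without a filter and 0.60 with a filter at 1 CPM in 5 libraries. Leaving out 1 library gave 0.54 (without crossbred female 4) to 0.64 (without crossbred female 5). The overlap counts without Iberian male 5 were chosen after seeing the data. With the alignment quality set as a term, which only Iberian males inform, it was 0.50 (SE 0.19) and no gene passed between breeds; the CCN2 and YAP1 differences were then -0.46 (SE 0.33) and -0.52 (SE 0.40), against 0.05 and -0.06. Among low-share libraries no Iberian female remained, so only breed in males and sex in crossbred had values.

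With the replicate number as a block the CCN1 difference was 0.57, and the correlation with YAP1 was 0.30 and with CCN2 0.19. The labels do not state whether the numbers pair the libraries. Of 30 same-numbered pairs, 5 had correlated deviations above 0.1. Their median correlation was 0.015, against -0.001 for pairs with different numbers, and 7 of 20 libraries correlated best with their own number. These values cannot decide whether the libraries were paired. The block changed no call of a member or list. Counts of called members and list genes were 0 for sex and the interaction in every fit. Depth limits CCN3, WWTR1, TEAD1 and YAP1 most.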

Other observations

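Crossbred female 5 and crossbred male 5, in which CCN1 lay among the Iberian values, were compared with the other crossbred libraries over the 12 other genes called higher in crossbred animals. Crossbred female 5 lay within the Iberian range for 4 of these 12 genes and crossbred male 5 for 1, and the other 8 crossbred libraries for 0 to 4. Those genes were chosen by the same contrast, so the counts describe them only. These 2 libraries had 1619265 and 1657017 counts, fewer than the 1732128 to 2371304 of the other crossbred libraries, and 3.57 and 3.88% low-quality alignments. Their CCN1 levels rested on 84 and 104 counts. Whether depth played a part in their CCN1 level was not tested.

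CCDC80, a matrix protein in the list of YAP-TEAD targets, was singled out after its values were seen. It had a log2 breed difference of -0.52 (SE 0.27), opposite to CCN1, and it did not pass. Its level was 4.95 ± 2.07 CPM in crossbred and 6.995 ± 4.59 CPM in Iberian libraries (SD), so the spread was wide. Iberian male 5 had 111 CPM of fibroblast and meningeal markers, against at most 54.0 elsewhere. The part of that library in the Iberian CCDC80 mean was not tested. Beside CCN1, the largest difference in the direction of CCN1 among tested list genes was 0.35 (SE 0.23), for the immediate early gene IER5. It was also picked after the values were seen, and it did not pass.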
